A study of Homo sapiens with 12 samples.

Results

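The genes described here are 33 genes of cholesterol and fatty acid synthesis, taken by symbol from the 28008 genes of the RNA-seq count tables. They comprise 19 enzymes of the sterol pathway, 8 enzymes of fatty acid synthesis and desaturation, and 6 regulators or transport proteins. All 33 were present in both tables. The cells were QGP-1 and BON-1, established human pancreatic neuroendocrine tumor (pNET) lines, each transduced with tet-MUC1shRNA, a doxycycline-inducible short hairpin RNA against MUC1 in a puromycin-selected lentiviral vector. In each line, 3 cultures were treated with vehicle (0.1% DMSO) and 3 with 500 ng/mL doxycycline (DOX) for 7 days, which gave 4 groups and 12 libraries. Both arms carried the same single hairpin. A scrambled hairpin with DOX was not analysed here, so an effect of DOX itself and one of the hairpin cannot be told apart. QGP-1 cells were grown in RPMI 1640 and BON-1 cells in DMEM/F-12, both with heat-inactivated serum.

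Cholesterol is built from acetyl-CoA through mevalonate, isoprenoid diphosphates, squalene and lanosterol, and the isoprenoids on the way also feed protein prenylation, dolichol and ubiquinone. Fatty acids start from the same acetyl-CoA, which ACLY and ACSS2 supply in the cytosol, ACACA carboxylates and FASN extends. The transcription factors encoded by SREBF1 and SREBF2 activate both branches when SCAP carries them from the endoplasmic reticulum, where INSIG1 and INSIG2 hold them while sterol is plentiful.

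The promoters of 4 enzymes and of SREBF2 are shown because they belong to genes that fell in both lines (FDPS, HSD17B7, EBP), to one that moved in opposite directions (HMGCS1) and to the sterol regulator itself. The sequences are those of RefSeq on GRCh38.p14, 5′ to 3′ on the strand of the gene, cut to the bases that lie before both the RefSeq start and the GENCODE gene body. Capitals mark CCAAT, the box bound by the factor NF-Y, on either strand (ATTGG on the opposite one), and TCACCCCAC, a form of the sterol regulatory element TCACNCCAC. Further CCAAT boxes of FDPS, HMGCS1 and HSD17B7 lay beyond the cut and are not shown. They lie at chr1:155308616-155308747 and chr1:162790452-162790701 on the plus strand, at chrX:48521558-48521798 on the plus strand, at chr5:43313513-43313662 on the minus strand and at chr22:41832855-41833104 on the plus strand.
FDPS: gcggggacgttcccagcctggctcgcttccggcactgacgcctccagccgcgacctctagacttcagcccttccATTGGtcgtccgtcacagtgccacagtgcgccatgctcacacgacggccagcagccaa
HSD17B7: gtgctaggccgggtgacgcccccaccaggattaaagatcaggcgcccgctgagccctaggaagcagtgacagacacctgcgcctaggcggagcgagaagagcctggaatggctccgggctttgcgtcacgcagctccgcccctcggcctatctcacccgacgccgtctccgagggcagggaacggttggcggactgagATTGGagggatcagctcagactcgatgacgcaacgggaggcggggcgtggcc
EBP: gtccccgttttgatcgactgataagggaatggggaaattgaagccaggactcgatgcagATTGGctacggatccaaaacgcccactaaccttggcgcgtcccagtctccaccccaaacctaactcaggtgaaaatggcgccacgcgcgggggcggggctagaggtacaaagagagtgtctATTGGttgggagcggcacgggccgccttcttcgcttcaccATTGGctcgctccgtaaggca
HMGCS1: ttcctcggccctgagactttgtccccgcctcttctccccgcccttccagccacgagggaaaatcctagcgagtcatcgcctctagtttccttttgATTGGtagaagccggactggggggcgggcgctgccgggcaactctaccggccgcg
SREBF2: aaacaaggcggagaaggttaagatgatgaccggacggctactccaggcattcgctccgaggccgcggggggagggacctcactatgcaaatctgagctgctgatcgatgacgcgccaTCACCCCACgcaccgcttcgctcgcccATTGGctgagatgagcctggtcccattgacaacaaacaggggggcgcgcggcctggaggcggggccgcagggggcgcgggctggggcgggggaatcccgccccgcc

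Of the 33 genes, 29 had a RefSeq window of 250 bases before to 50 bases after the start, with no window for ACAT2, FDFT1, SQLE and FASN. Not every window spanned the start of the GENCODE gene body. That of IDI1 (chr10:1056655-1056954) lay before its gene body (chr10:1039152-1049119, minus strand). Those of ACLY, DHCR7, FADS1 and FADS2, among others, lay within their gene bodies. All were counted as they stand. CCAAT was found on either strand in 18 of the 29 windows (62.1%), against 34.6% of 35116 promoters of the same length. Among the roles, 12 of 16 sterol enzymes with a window held it, 3 of 6 regulators and 3 of 7 fatty acid enzymes. GGGCGG, the core of a GC box, was found in 26 of 29 (89.7%) against 45% of all promoters. The E-box CACGTG was found in 4 (LSS, SC5D, SCAP and INSIG1; 13.8% against 7.26%), and TCACNCCAC in SREBF2 alone (3.45% against 1.13%). The 35116 promoters were all those listed, with no choice by gene or by expression. Each member gave only its first listed window, and all 33 members passed the filter on low counts in both lines. The shares are therefore not those of a matched set, and whether the excess is particular to these genes was not tested. A match is a description of letters, and its absence from a window says nothing about binding.

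Total counts per library ranged from 38224144 to 50525926 for QGP-1 and from 15981954 to 28484324 for BON-1. The small nuclear and signal recognition particle RNAs RN7SK, RN7SL1 and RN7SL2 took 5.37, 5.94 and 6.38% of counts with vehicle and 4.53, 3.36 and 3.30% with DOX in QGP-1 cells, without overlap, and 1.35 to 2.39% and 1.55 to 3.77% in BON-1 cells, with overlap. MUC1, the target of the hairpin, was lower with DOX in both lines, at 7.19, 5.81 and 5.65 CPM with vehicle and 0.705, 1.04 and 0.744 CPM with DOX in QGP-1 cells (CPM, counts per 1000000 of the TMM-scaled library size within a line) and 20.6, 20.7 and 15.6 CPM with vehicle and 1.48, 2.65 and 3.97 CPM with DOX in BON-1 cells, log2 fold changes of -2.91 ± 0.23 (adjusted p = 8.24e-07) and -2.79 ± 0.22 (adjusted p = 6.51e-11). Of 9 neuroendocrine markers, 9 were above 1 CPM in every QGP-1 library and 8 in every BON-1 library, where NCAM1 was near 0. Their summed level was 4419 to 5136 CPM with vehicle and 5200.1 to 5888 CPM with DOX in QGP-1 cells, and 11197 to 14479 and 8758 to 9263 CPM in BON-1 cells. The members of that list differed in direction in BON-1 cells, where CHGA (chromogranin A), at a mean of 8104 CPM with vehicle and 2936 CPM with DOX, was lower (log2 fold change -1.46), SYP was lower (-0.34), and SCG2 (0.45) and SCG3 (0.27) were higher. In QGP-1 cells 1 of the 9 was lower (NCAM1, -0.51) and 3 were higher. The summed level of 5 leukocyte markers went from 10.5 to 12.9 CPM with vehicle to 16.9 to 21.0 CPM with DOX in QGP-1 cells, mostly LYZ, and from 26.0 to 28.0 CPM to 51.7 to 57.4 CPM in BON-1 cells, mostly CD68, while PTPRC, which defines leukocytes, stayed at or under 0.257 CPM in every library. The sum of 5 fibroblast markers went from 1.81 to 3.42 CPM to 0.976 to 1.29 CPM in QGP-1 cells, mostly COL1A1 (-1.16), and from 5.22 to 6.65 CPM to 10.6 to 11.6 CPM in BON-1 cells, mostly LUM (1.01). The sum of 5 acinar markers was at or under 0.0694 CPM in QGP-1 cells and went from 0.994 to 1.24 CPM to 0.356 to 0.706 CPM in BON-1 cells. The sum of 4 endothelial markers overlapped between vehicle and DOX in both lines. The part of the RNA share and of these markers in the results was not tested. In bulk RNA, fewer cells of a state and less RNA per cell cannot be told apart.

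With DOX, more of the 33 genes were lower than higher in both lines, and in BON-1 cells the enzymes called were lower in both branches. In QGP-1 cells 12 of the 33 genes were called lower and 6 higher, against 17.7% lower and 17.3% higher among the 15089 genes tested. In BON-1 cells 18 were called lower and 1 higher, against 18.3% and 17.0% of 14625 genes. The members' share lower was thus 36.4% in QGP-1 and 54.5% in BON-1 cells, and their share higher was 18.2% and 3.03%. A call means an adjusted p below 0.05 in edgeR's quasi-likelihood test of 3 against 3 cultures, with Benjamini-Hochberg adjustment over all genes tested and no minimum fold, and all 33 passed the filter on low counts in both lines. The median log2 fold change (DOX over vehicle) of the 33 was -0.10 in QGP-1 and -0.29 in BON-1 cells, where all genes tested had a median of -0.01 in both. When the deposited TPM values were tested by limma without centring on the median gene, the median of all genes moved by 0.59 in QGP-1 and by -0.31 in BON-1 cells, and the split became 1 lower and 28 higher in QGP-1 and 2 lower and 0 higher in BON-1 cells. Of the 12 genes called lower in QGP-1 cells, 10 had a positive change in that setting, 7 of them past the threshold, and FDPS and ACSS2 stayed negative. The 6 called higher in QGP-1 and the 18 called lower in BON-1 cells kept their sign. These calls lay in the direction in which the median of all genes moved, so their kept sign is no check of them. SCAP, the gene called higher in BON-1 cells, did not keep its sign. The changes below are therefore relative to the bulk of the transcriptome. The replicates were separate cultures of 1 transduced line, so the p-values measure the spread between cultures.

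**Figure D1:**
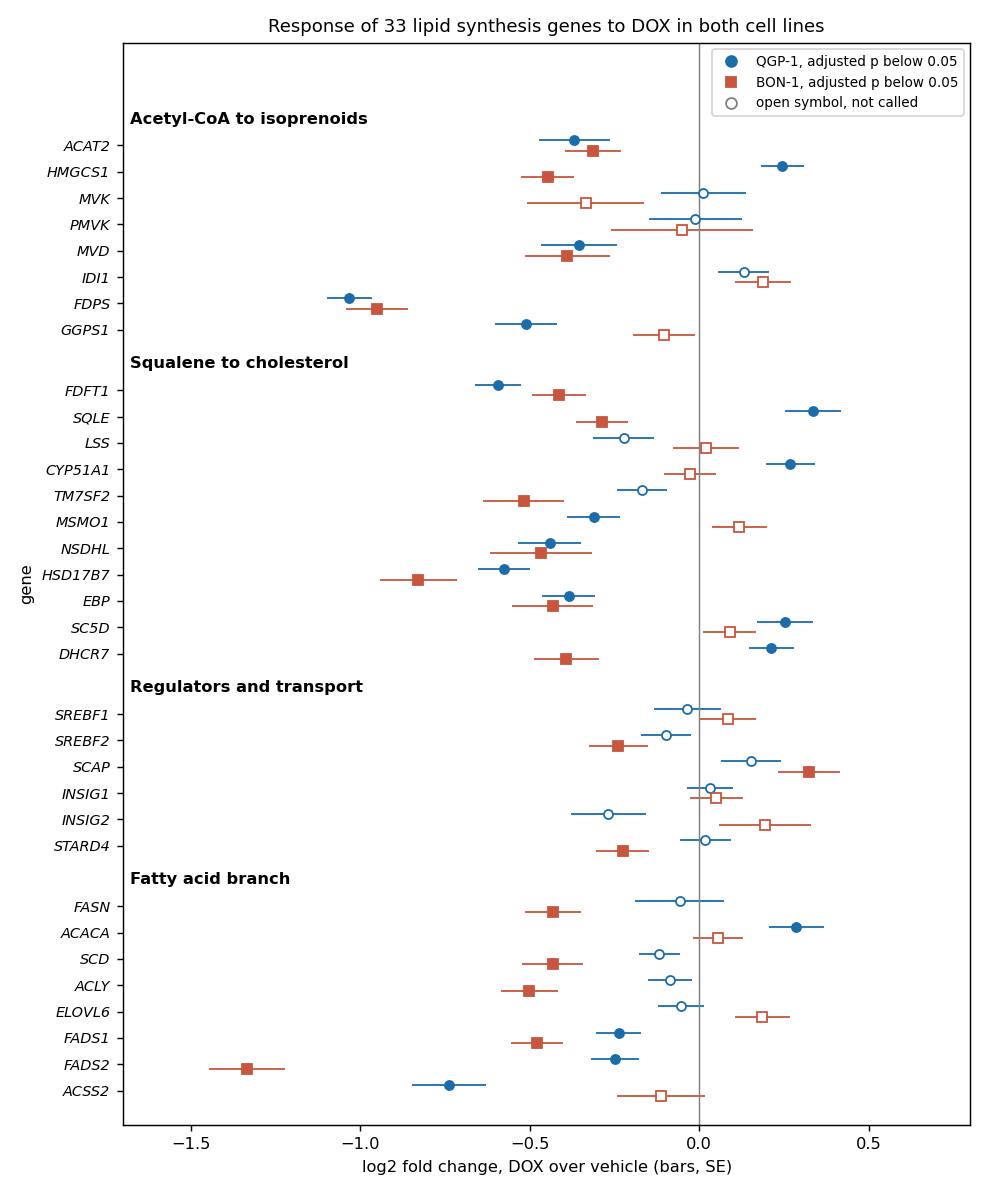
Log2 fold change of DOX over vehicle (x axis, bars are SE) for the 33 genes (y axis, grouped by role) in QGP-1 (circles) and BON-1 (squares), with filled symbols for an adjusted p below 0.05. FDPS lies near -1 in both lines, while HMGCS1, SQLE and DHCR7 lie right of 0 in QGP-1 and left of 0 in BON-1 cells.

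Taken by role, 9 of 19 sterol enzymes were lower and 5 higher in QGP-1 cells (median log2 fold change -0.22), and 11 were lower and 0 higher in BON-1 cells (median -0.34). The 19 include GGPS1, which leads away from sterols and was among the 9 lower in QGP-1 cells. Counts by role are to be read against 17.7% lower and 17.3% higher of all genes in QGP-1 cells. In BON-1 cells these shares were 18.3% and 17.0%. Among the 8 enzymes from acetyl-CoA to the isoprenoids, 4 were lower and 1 higher in QGP-1 and 4 were lower in BON-1 cells. Among the 11 from squalene formation to cholesterol, 5 were lower and 4 higher in QGP-1 cells, and 7 were lower and 0 higher in BON-1 cells. The fatty acid enzymes had 3 of 8 lower and 1 higher in QGP-1 cells (median -0.10) and 5 of 8 lower in BON-1 cells (median -0.43). The counts of 0 enzymes higher in BON-1 cells were the same by DESeq2, while 1 sterol enzyme (IDI1) and 1 fatty acid enzyme (ELOVL6) had an unadjusted edgeR p below 0.05. None of the 6 regulators was called in QGP-1 cells by edgeR with all 6 libraries and no replicate block, or by DESeq2, and 1 of them, INSIG2, had an unadjusted edgeR p below 0.05. INSIG2 was called lower in 2 of 9 alternative settings (the replicate block and limma on centred log2(TPM + 1)) and in 1 of 6 fits that left out a library, and SCAP was called higher under a correction for length and GC content.

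FDPS fell in both lines. It encodes farnesyl diphosphate synthase, which makes the isoprenoid at which sterol synthesis and prenylation part. Its levels were 211, 224 and 207 CPM with vehicle and 104, 102 and 109 CPM with DOX in QGP-1 and 86.6, 81.4 and 85.1 CPM with vehicle and 46.3, 47.0 and 37.9 CPM with DOX in BON-1 cells. The groups did not overlap in either line, and the level with DOX was 0.489 and 0.518 of that with vehicle. The log2 fold change was -1.03 ± 0.07 (adjusted p = 1.65e-07) in QGP-1 and -0.95 ± 0.09 (adjusted p = 4.06e-09) in BON-1 cells, values after the ± sign of a fold change being SE throughout. FDPS has 8 pseudogenes by name in the annotation, and the treatment of multi-mapping reads is not stated in the sources used here.

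ACAT2, a thiolase that condenses acetyl-CoA to acetoacetyl-CoA, fell less. It stood at 88.5, 97.9 and 109 CPM with vehicle and 88.8, 66.1 and 74.1 CPM with DOX in QGP-1 cells, where 1 DOX culture lay inside the vehicle range, and at 68.9, 68.9 and 71.0 CPM with vehicle and 56.0, 57.7 and 54.2 CPM with DOX in BON-1 cells, without overlap. The changes were -0.37 ± 0.10 (adjusted p = 0.014) and -0.31 ± 0.08 (adjusted p = 0.00394). In QGP-1, omitting vehicle replicate 3 (-0.29) or DOX replicate 2 (-0.27) ended the call. The gene overlaps TCP1 and SOD2 on the other strand. MVD, which decarboxylates mevalonate diphosphate to isopentenyl diphosphate, stood at 29.6, 30.3 and 23.7 CPM with vehicle and 20.4, 24.1 and 20.9 CPM with DOX in QGP-1 and 29.8, 25.0 and 26.9 CPM with vehicle and 20.7, 24.6 and 17.2 CPM with DOX in BON-1 cells. Its groups overlapped in QGP-1 cells, where the change was -0.35 ± 0.11 (adjusted p = 0.0236), and lay apart by a narrow margin in BON-1 cells, where it was -0.39 ± 0.13 (adjusted p = 0.0164). The call of MVD in QGP-1 cells held in 2 of 6 fits that each left out a library. It was lost, at -0.33 to -0.29, without vehicle replicate 1 or 2 and without DOX replicate 1 or 3. In BON-1 cells it ended on omitting vehicle replicate 1 (-0.32) or DOX replicate 3 (-0.28).

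Of the other enzymes of this stretch, MVK and PMVK, the kinases that phosphorylate mevalonate in turn, were called in neither line, changing on the log2 scale by 0.01 and -0.01 in QGP-1 and -0.34 and -0.05 in BON-1 cells. IDI1, the isomerase that makes dimethylallyl diphosphate, was uncalled at 0.13 and 0.19. GGPS1, which adds another isoprene unit to farnesyl diphosphate and leads away from sterols, was called in QGP-1 cells only. Its levels were 57.5, 64.3 and 70.9 CPM with vehicle and 43.5, 43.0 and 48.8 CPM with DOX in QGP-1 cells, without overlap, and 50.3, 50.2 and 59.2 CPM with vehicle and 49.4, 48.9 and 50.2 CPM with DOX in BON-1 cells, with overlap.

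Of the enzymes beyond farnesyl diphosphate, 4 were lower in both lines. FDFT1, squalene synthase, the first enzyme committed to sterols, stood at 209.5, 209 and 226 CPM with vehicle and 148, 134 and 145 CPM with DOX in QGP-1 and at 111, 98.0 and 100.2 CPM with vehicle and 78.2, 78.2 and 75.6 CPM with DOX in BON-1 cells. Neither line showed overlap, with changes of -0.59 ± 0.07 (adjusted p = 2.46e-05) and -0.41 ± 0.08 (adjusted p = 1.78e-04). HSD17B7, the keto-reductase of sterol demethylation, stood at 119, 128 and 132 CPM with vehicle and 88.9, 77.7 and 87.7 CPM with DOX in QGP-1 and at 45.5, 44.6 and 51.3 CPM with vehicle and 31.4, 21.9 and 26.4 CPM with DOX in BON-1 cells. Every DOX culture lay below every vehicle culture, with changes of -0.58 ± 0.08 (adjusted p = 6.61e-05) and -0.83 ± 0.11 (adjusted p = 1.45e-06). HSD17B7 has 2 pseudogenes by name.

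NSDHL, the dehydrogenase that acts in the same demethylation, stood at 37.1, 30.9 and 35.6 CPM with vehicle and 25.5, 25.0 and 25.7 CPM with DOX in QGP-1 and at 14.3, 12.5 and 15.9 CPM with vehicle and 10.7, 11.0 and 9.31 CPM with DOX in BON-1 cells. EBP, the isomerase that moves the ring double bond, stood at 54.9, 57.0 and 53.2 CPM with vehicle and 44.6, 41.3 and 40.4 CPM with DOX in QGP-1 and at 30.0, 24.6 and 24.8 CPM with vehicle and 19.8, 21.3 and 17.8 CPM with DOX in BON-1 cells. The groups of both genes lay apart in both lines. The changes of NSDHL were -0.44 ± 0.09 (adjusted p = 0.00213) and -0.47 ± 0.15 (adjusted p = 0.0163), and those of EBP -0.38 ± 0.08 (adjusted p = 0.00181) and -0.43 ± 0.12 (adjusted p = 0.00558). NSDHL lost its BON-1 call without vehicle replicate 3 (log2 fold change -0.39) and EBP without vehicle replicate 1 (-0.33).

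**Figure D2:**
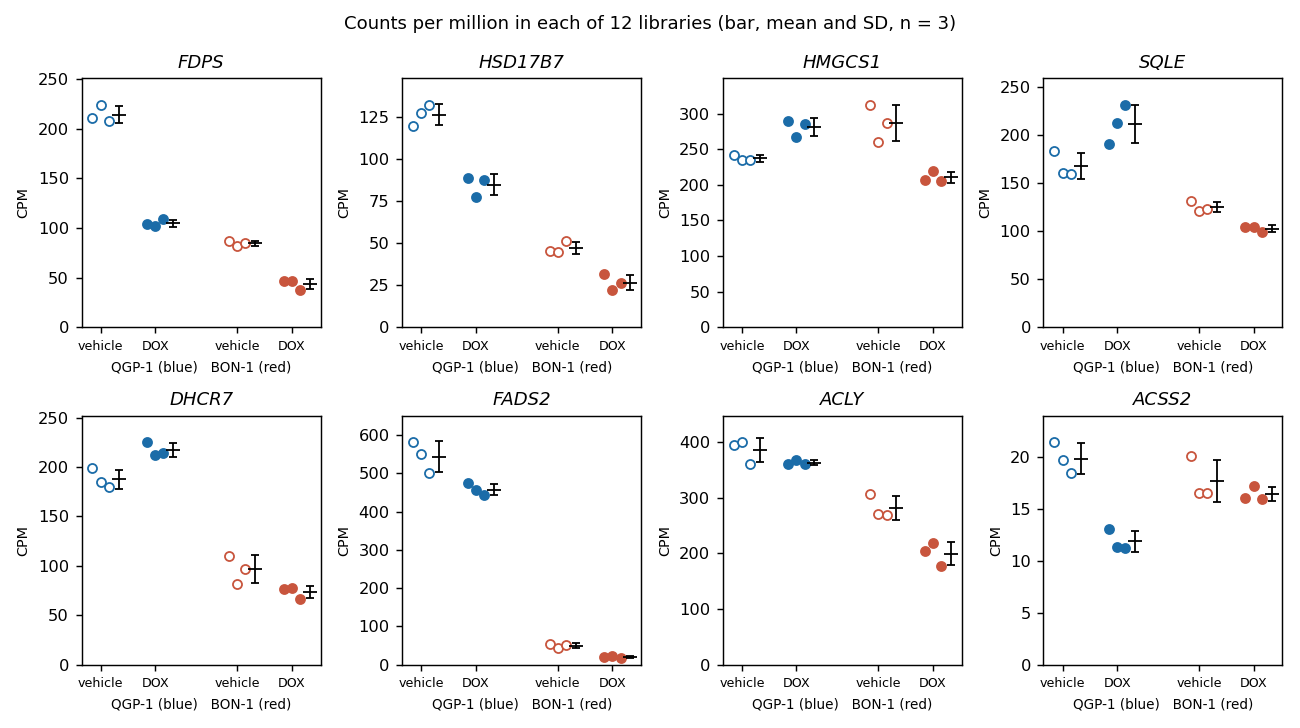
CPM (y axis, from 0) of 8 genes in each of the 12 libraries, with open points for vehicle, filled points for DOX, and the mean and SD (n = 3) as a bar beside each group. FDPS and HSD17B7 drop in both lines, HMGCS1, SQLE and DHCR7 rise in QGP-1 and drop in BON-1 cells, and ACSS2 drops in QGP-1 cells while its BON-1 groups overlap.

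HMGCS1, SQLE and DHCR7 were called higher in QGP-1 and lower in BON-1 cells, which is 3 of 33 genes (9.09%) against 2.69% of 13535 genes tested in both. HMGCS1, the synthase that makes HMG-CoA at the entry to the pathway, stood at 242, 234 and 234 CPM with vehicle and 290.2, 267 and 286 CPM with DOX in QGP-1 and at 312, 261 and 287 CPM with vehicle and 207, 219 and 205 CPM with DOX in BON-1 cells. All 3 DOX cultures lay above vehicle in the first line and below it in the second, with changes of 0.25 ± 0.06 (adjusted p = 0.00857) and -0.45 ± 0.08 (adjusted p = 5.28e-05). SQLE, the epoxidase of squalene, stood at 184, 160.1 and 159.9 CPM with vehicle and 191, 213 and 231 CPM with DOX in QGP-1 and at 131, 121 and 123 CPM with vehicle and 105, 105 and 98.8 CPM with DOX in BON-1 cells. Again the groups lay apart, with changes of 0.33 ± 0.08 (adjusted p = 0.0059) and -0.29 ± 0.08 (adjusted p = 0.00429). DHCR7, which catalyses the final reduction to cholesterol, stood at 198, 184 and 179.8 CPM with vehicle and 225, 212 and 214 CPM with DOX in QGP-1 and at 110.2, 81.9 and 96.7 CPM with vehicle and 76.2, 77.9 and 66.4 CPM with DOX in BON-1 cells. The groups lay apart in both lines, and the changes were 0.21 ± 0.07 (adjusted p = 0.0226) and -0.39 ± 0.10 (adjusted p = 0.00188). The QGP-1 call of DHCR7 was lost with both lines in 1 fit, the fit of the interaction, at an unchanged log2 fold change of 0.21, and also without vehicle replicate 2 (log2 fold change 0.20) and without vehicle replicate 3 (0.18), whereas the calls of HMGCS1 and SQLE held in each fit that left out a library, in both lines.

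Over both lines, 9 of the 33 genes (27.3%) were called lower in each, against 7.23% of the 13535 genes tested in both, and 0 were called higher in each, against 6.88%. The count of 0 higher in each was the same by DESeq2 and at an unadjusted edgeR p below 0.05. It did not hold under the length and GC correction, where SCAP was called higher in both lines. Beside the 7 sterol enzymes ACAT2, MVD, FDPS, FDFT1, NSDHL, HSD17B7 and EBP, these 9 were FADS1 and FADS2. CYP51A1, the lanosterol demethylase, and SC5D, the lathosterol desaturase, were called in QGP-1 cells only, as higher (0.27 and 0.25). MSMO1, the sterol methyl oxidase, was called lower in that line only. The call of CYP51A1 was lost without vehicle replicate 2 (0.22), and that of SC5D without vehicle replicate 1 (0.21), vehicle replicate 2 (0.20) or DOX replicate 3 (0.22). TM7SF2, a sterol reductase, was called in BON-1 cells only, as lower (-0.52). In QGP-1 cells TM7SF2 was at -0.17 (adjusted p = 0.0941), with every DOX culture below every vehicle culture. The difference between the lines, tested below as an interaction in edgeR, was not called for SC5D (adjusted p = 0.41) or TM7SF2 (adjusted p = 0.143). LSS, which cyclizes squalene epoxide to lanosterol, was called in neither, at -0.22 and 0.02. In QGP-1 cells it was called lower in 4 of 9 alternative settings (-0.25 to -0.21 over the 9) and in 2 of 6 fits that left out a library. Groups lay apart for 12 genes lower and 5 higher in QGP-1 cells, where 23.2% and 23.5% of all genes did so, and for 18 lower and 3 higher in BON-1 cells, where 23.9% and 22.4% did so.

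Among the regulators, SREBF2, SCAP and STARD4 were called, each in BON-1 cells only. SREBF2, which encodes the sterol-responsive transcription factor, stood at 210.5, 193 and 181 CPM with vehicle and 173, 193 and 180.0 CPM with DOX in QGP-1 cells, with overlap, and at 116, 105 and 107 CPM with vehicle and 99.3, 98.4 and 80.7 CPM with DOX in BON-1 cells, where every DOX culture lay below vehicle. Its changes were -0.10 ± 0.07 (adjusted p = 0.329) and -0.24 ± 0.09 (adjusted p = 0.0311), and the BON-1 call ended on omitting vehicle replicate 1 (-0.19) or DOX replicate 3 (-0.16). SREBF1, whose product drives fatty acid synthesis, stood at 99.1, 101 and 76.4 CPM with vehicle and 83.4, 94.3 and 91.6 CPM with DOX in QGP-1 and at 68.7, 67.5 and 69.5 CPM with vehicle and 75.3, 74.6 and 68.2 CPM with DOX in BON-1 cells. It was called in neither line, at -0.04 ± 0.10 (adjusted p = 0.818) and 0.08 ± 0.08 (adjusted p = 0.456), though the length and GC correction gave 0.36 and a call in BON-1 cells. INSIG1, itself a classic target of the sterol-regulated factors as well as their anchor, stood at 215, 214 and 216 CPM with vehicle and 238, 207 and 214 CPM with DOX in QGP-1 and at 84.9, 79.9 and 80.8 CPM with vehicle and 86.0, 82.7 and 85.8 CPM with DOX in BON-1 cells. Its groups overlapped in both lines, with changes of 0.03 ± 0.07 (adjusted p = 0.755) and 0.05 ± 0.08 (adjusted p = 0.661).

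SCAP, the escort of the precursors, was called higher in BON-1 cells (0.32 ± 0.09 (adjusted p = 0.0059)) and not in QGP-1 cells (0.15). STARD4, a cytosolic sterol carrier, was called lower in BON-1 cells (-0.23 ± 0.08 (adjusted p = 0.0223)), and was at 0.02 in QGP-1 cells. SCAP lost its call without vehicle replicate 3 (0.25), and STARD4 without vehicle replicate 2 (-0.24), vehicle replicate 3 (-0.21) or DOX replicate 2 (-0.18). INSIG2 was called in neither line, at -0.27 and 0.19.

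In the fatty acid branch, the desaturases FADS1 and FADS2 were the genes lower in both lines. FADS2, the desaturase that begins the making of polyunsaturated fatty acids, stood at 581, 549 and 501 CPM with vehicle and 474, 456 and 443 CPM with DOX in QGP-1 and at 54.4, 42.4 and 50.6 CPM with vehicle and 18.9, 21.7 and 17.9 CPM with DOX in BON-1 cells. The groups lay apart in each line, and the fall was by 15.8% in QGP-1 and by 60.3% in BON-1 cells. On the log2 scale these were -0.25 ± 0.07 (adjusted p = 0.0132) and -1.33 ± 0.11 (adjusted p = 2.77e-10). FADS1, the desaturase that acts after it, stood at 320.0, 315 and 309 CPM with vehicle and 286, 252 and 262 CPM with DOX in QGP-1 and at 221, 193 and 210.1 CPM with vehicle and 149.7, 147 and 151 CPM with DOX in BON-1 cells. Its groups lay apart too, with changes of -0.24 ± 0.07 (adjusted p = 0.0133) and -0.48 ± 0.08 (adjusted p = 1.36e-05). Both genes overlap on opposite strands of chromosome 11, and whether the counting used strand is not stated in the sources used here. The QGP-1 calls of both were lost without vehicle replicate 1 (FADS1 -0.23, FADS2 -0.20), that of FADS1 also without DOX replicate 2 (-0.20) and that of FADS2 also without vehicle replicate 2 (-0.24).

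ACLY, FASN and SCD were lower in BON-1 cells and were not called in QGP-1 cells. ACLY, which cleaves citrate to cytosolic acetyl-CoA, stood at 395, 399 and 360.1 CPM with vehicle and 359.8, 368 and 360.4 CPM with DOX in QGP-1 cells, with overlap, and at 307, 270.2 and 269 CPM with vehicle and 204, 218 and 176 CPM with DOX in BON-1 cells, without. Its changes were -0.09 ± 0.06 (adjusted p = 0.338) and -0.50 ± 0.08 (adjusted p = 2.51e-05). FASN, the synthase, and SCD, the stearoyl-CoA desaturase, changed by -0.43 ± 0.08 (adjusted p = 1.53e-04) and -0.43 ± 0.09 (adjusted p = 3.91e-04) in BON-1 cells, and by -0.06 and -0.12 in QGP-1 cells, where neither was called. ACACA, the acetyl-CoA carboxylase, was higher in QGP-1 cells (0.29 ± 0.08 (adjusted p = 0.0141)) and was at 0.06 in BON-1 cells. It lost its call without vehicle replicate 3 (0.21). The SCD groups also lay apart in QGP-1 cells, lower with DOX. The line-by-DOX interaction test in edgeR, given below, called none of FASN (adjusted p = 0.148), SCD (adjusted p = 0.0808) and ACACA (adjusted p = 0.194). Of 6 alternative settings of that test, FASN was called in 1, SCD in 3 and ACACA in 0. ELOVL6, which extends palmitate, was called in neither line, at -0.05 and 0.19.

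ACSS2, the acetate-dependent source of acetyl-CoA, stood apart from ACLY. Its levels were 21.4, 19.7 and 18.4 CPM with vehicle and 13.0, 11.4 and 11.2 CPM with DOX in QGP-1 cells, without overlap, and 20.1, 16.5 and 16.6 CPM with vehicle and 16.0, 17.2 and 16.0 CPM with DOX in BON-1 cells, with overlap. The change was -0.74 ± 0.11 (adjusted p = 1.67e-04) in QGP-1 and -0.11 ± 0.13 (adjusted p = 0.532) in BON-1 cells.

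The branches were set side by side within each library, as the mean over genes of log2(CPM + 0.5) relative to the vehicle mean of the line. With DOX the sterol enzymes stood at -0.18 ± 0.04 (SD, n = 3) in QGP-1 and -0.29 ± 0.08 in BON-1 cells, and all DOX libraries lay below all vehicle libraries. The fatty acid enzymes stood at -0.15 ± 0.05 in QGP-1 cells, where the highest DOX library (-0.11) lay just above the lowest vehicle library (-0.11), and at -0.38 ± 0.08 in BON-1 cells, without overlap. The sterol mean minus the fatty acid mean was -0.03 ± 0.08 with DOX in QGP-1 cells, inside the vehicle range of -0.07 to 0.11. In BON-1 cells it was 0.09 ± 0.08, with a range of 0.02 to 0.18 that overlapped the vehicle range of -0.05 to 0.03. A difference between the branches was therefore not shown beyond the spread between libraries in either line.

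**Figure D3:**
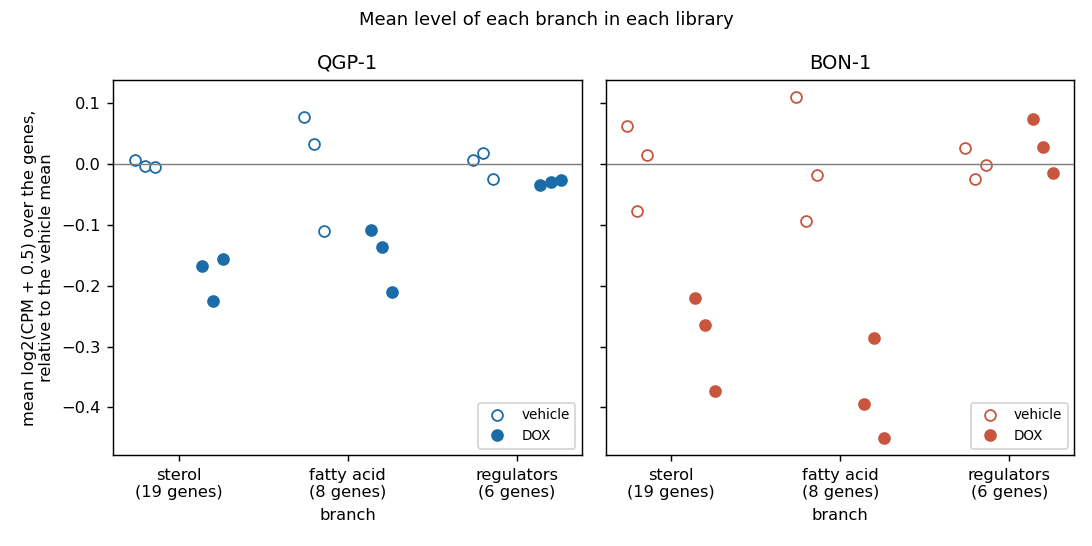
Mean log2(CPM + 0.5) over the genes of a branch relative to the vehicle mean of the line (y axis) for each library, with open points for vehicle and filled points for DOX, QGP-1 at left and BON-1 at right. The sterol points with DOX lie between -0.23 and -0.16 in QGP-1 and between -0.37 and -0.22 in BON-1 cells, and the regulators lie near 0.

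Whether the response differed between the lines was tested as a line-by-DOX interaction, with edgeR fitted once to the 12 libraries. Of the 33 genes, 5 were called with a lower log2 fold change in BON-1 than in QGP-1 cells, against 7.92% of 16598 genes. A further 3 were called with a higher one, against 8.80%. The difference, BON-1 minus QGP-1 log2 fold change, was -0.68 ± 0.11 (adjusted p = 7.59e-05) for HMGCS1, -0.61 ± 0.11 (adjusted p = 5.46e-04) for SQLE and -0.59 ± 0.13 (adjusted p = 0.00197) for DHCR7. FADS2 differed by -1.08 ± 0.13 (adjusted p = 3.37e-06) and ACLY by -0.41 ± 0.11 (adjusted p = 0.015). In the other direction were ACSS2 at 0.63 ± 0.17 (adjusted p = 0.0125), MSMO1 at 0.44 ± 0.12 (adjusted p = 0.0125) and GGPS1 at 0.42 ± 0.13 (adjusted p = 0.0303). MSMO1, given above as lower in QGP-1 cells only, stood at 211, 219 and 236 CPM with vehicle and 184, 161 and 193 CPM with DOX there, without overlap, and at 153, 174 and 179.9 CPM with vehicle and 193, 165 and 193 CPM with DOX in BON-1 cells, with overlap. CYP51A1 was not called (-0.29 ± 0.11 (adjusted p = 0.0796)) but was in 4 of 6 alternative settings, at -0.40 to -0.28 over the 6. FDPS and HSD17B7 were not called, with differences of 0.09 ± 0.11 (adjusted p = 0.632) and -0.24 ± 0.14 (adjusted p = 0.257). GGPS1 kept its interaction call in 3 of 12 fits that each left out a library, over which its difference ranged from 0.34 to 0.49, and MSMO1 in 10 of 12, losing it without BON-1 vehicle replicate 1 (0.36) or BON-1 DOX replicate 1 (0.38).

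**Figure D4:**
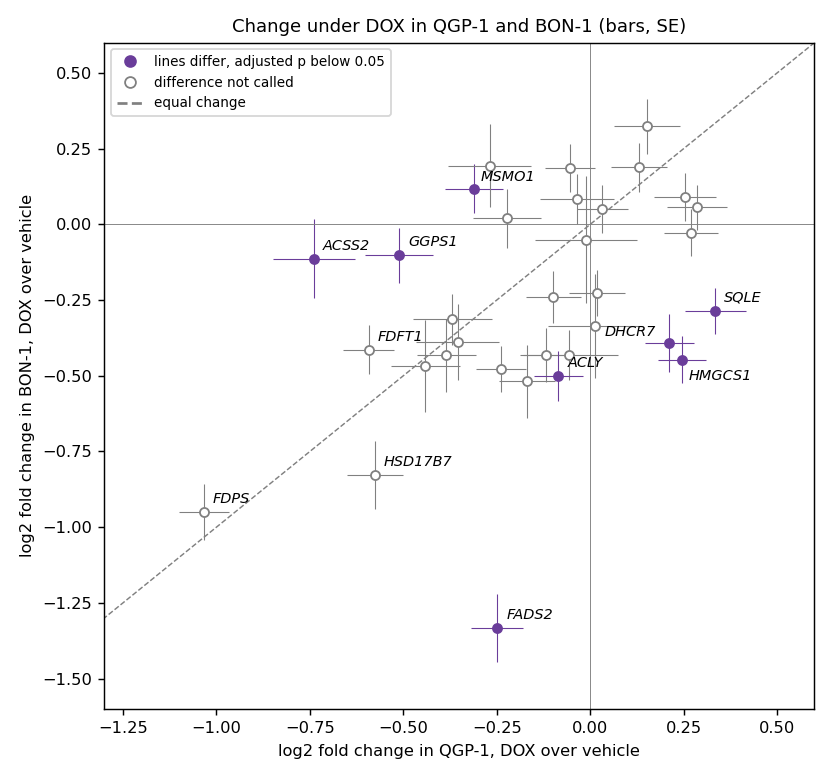
Log2 fold change with DOX in QGP-1 (x axis) against BON-1 (y axis) for the 33 genes, with SE bars, filled points for the 8 genes whose response differed between the lines and a dashed line of equal change. FDPS lies near the line, HMGCS1, SQLE and DHCR7 lie to the lower right, and FADS2 lies far below it.

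With vehicle alone, 25 of the 33 genes were lower in BON-1 than in QGP-1 and 2 were higher, HMGCS1 and MVK, against 37.5% of 16598 genes in each direction. The call of HMGCS1 was lost without QGP-1 vehicle replicate 2 (log2 difference 0.19) and without BON-1 vehicle replicate 1 (0.12). All 11 enzymes from squalene formation to cholesterol were among those lower, with a median log2 difference of -1.04, against -0.23 for the 8 enzymes before them, -0.82 for the regulators and -0.60 for the fatty acid enzymes. FADS2 had the lowest ratio, 0.0858 of the QGP-1 level, a log2 difference of -3.54 ± 0.10 (adjusted p = 1.20e-20). HSD17B7 (-1.50 ± 0.10 (adjusted p = 7.07e-13)), INSIG1 (-1.47 ± 0.07 (adjusted p = 2.59e-15)) and FDPS (-1.42 ± 0.08 (adjusted p = 2.89e-14)) followed at 0.353, 0.361 and 0.373 of it. SCD was not called, at -0.01 ± 0.08 (adjusted p = 0.932). Line, medium and the separate tables cannot be told apart here.

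On a per-length scale (TPM, deposited by the authors), SCD was the most abundant of the 33 with vehicle in both lines, at 81.8 ± 7.25 TPM (SD, n = 3) in QGP-1 and 211 ± 23.4 TPM in BON-1 cells. In QGP-1 cells CYP51A1 (55.7 ± 4.78 TPM), FDPS (55.3 ± 4.77 TPM) and FADS2 (53.7 ± 7.86 TPM) followed and did not differ beyond their spread. In BON-1 cells CYP51A1 (95.7 ± 11.2 TPM), MSMO1 (76.9 ± 19.7 TPM), IDI1 (69.2 ± 15.6 TPM) and ACLY (60.0 ± 9.02 TPM) followed, neighbours again within their spread. The lowest was MVK in QGP-1 cells (1.59 ± 0.219 TPM). In BON-1 cells PMVK (3.54 ± 0.199 TPM) and LSS (3.83 ± 0.535 TPM) were lowest, within their spread of each other. The tables were normalized separately, so TPM values are compared within a line only.

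Transcript length moved with the change. Over the genes tested with an annotated length (13876 in QGP-1 and 13434 in BON-1 cells), log2 fold change and length had a Spearman rho of 0.28 in QGP-1 and 0.10 in BON-1 cells, and GC content one of -0.11 and -0.29. Over the 33 genes, which share their libraries, rho with length was 0.52 and 0.31. The 12 genes called lower in QGP-1 cells had a median length of 1934 bases, against 4252.5 bases for the 6 called higher. In a fit that removed each library's trend with length and GC content, chosen after seeing the data, 10 of the 33 were lower and 7 higher in QGP-1 cells, and 13 were lower and 2 higher in BON-1 cells. Of all 13876 genes tested in that fit in QGP-1 cells, 2152 were lower and 2884 higher. In BON-1 cells 2368 of 13461 were lower and 2634 higher. The calls of ACAT2, MVD, EBP, ACACA and FADS2 were lost in QGP-1 cells, those of MVD, TM7SF2, DHCR7, SREBF2 and FASN in BON-1 cells, and the interaction calls of GGPS1 and MSMO1. The same fit added calls for IDI1 (0.23), SCAP (0.24), LSS (-0.21) and SCD (-0.20) in QGP-1 cells and for SREBF1 in BON-1 cells, where its log2 fold change was 0.36. It added interaction calls for CYP51A1 (-0.40), HSD17B7 (-0.37), STARD4 (-0.42), LSS (0.40), SCAP (0.36) and SREBF1 (0.33). FDPS, FDFT1, HSD17B7, NSDHL and FADS1 stayed lower in both lines in that fit, and HMGCS1 and SQLE stayed higher in QGP-1 and lower in BON-1 cells.

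**Figure D5:**
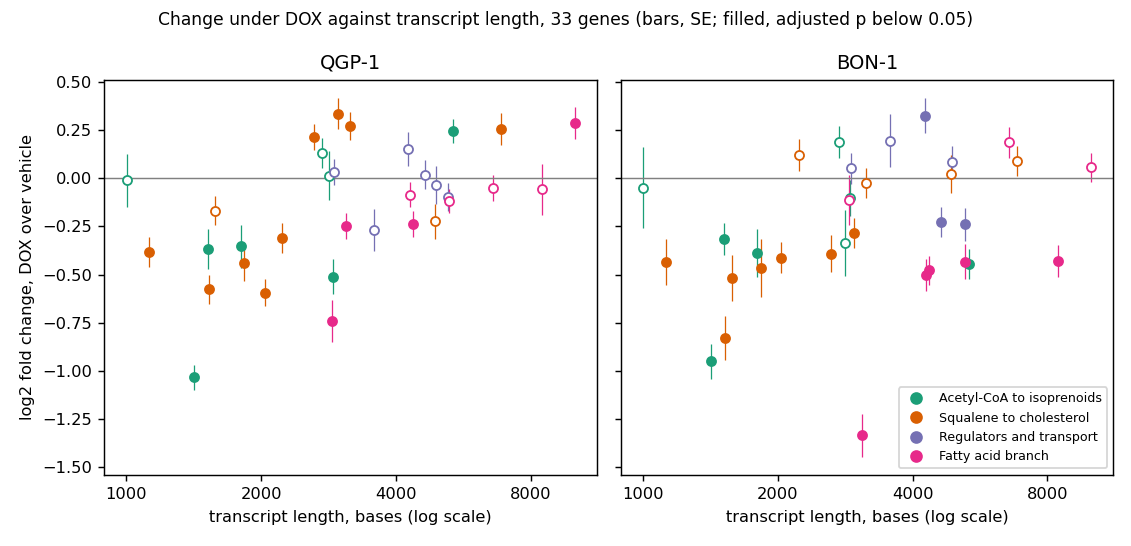
Log2 fold change with DOX (y axis, bars are SE) against transcript length in bases (x axis, log scale) for the 33 genes in QGP-1 (left) and BON-1 (right), colored by role and filled for an adjusted p below 0.05. In QGP-1 cells the genes called lower cluster among the shorter transcripts and those called higher among the longer ones.

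Of the genes around the pathway, counts called are to be read against 17.7% lower and 17.3% higher of all genes in QGP-1 and 18.3% and 17.0% in BON-1 cells. Of 13 genes that use isoprenoids, 1 was lower and 2 higher in QGP-1 and 3 and 1 in BON-1 cells (7.69% and 15.4%, 23.1% and 7.69%), with NUS1, a subunit of the dolichol-making prenyltransferase, higher in both (0.42 and 0.41). Of 8 genes of sterol efflux and its nuclear receptors, 0 were lower and 1 (12.5%) higher in QGP-1 and 2 and 2 (25% each) in BON-1 cells. ABCA1, the cholesterol exporter, was higher in both, at 1.34 ± 0.13 (adjusted p = 5.40e-06) in QGP-1 and 0.82 ± 0.10 (adjusted p = 3.08e-07) in BON-1 cells. Of 12 genes of uptake and storage, 0 were lower and 3 (25%) higher in QGP-1 and 3 (25%) and 4 (33.3%) in BON-1 cells, with the lipoprotein receptor VLDLR higher in both (0.27 and 0.67). Of 11 genes that process or degrade the sterol-sensing machinery, 2 were lower and 2 higher in each line (18.2% each, near the share of all genes), and MBTPS2, a protease that releases the active factor, was lower in both (-0.51 and -0.60).

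On the fatty acid side, 3 of 13 elongation and desaturation genes were lower and 3 higher in QGP-1 cells (23.1% each, against 17.7% and 17.3% of all genes), and 3 and 2 of 11 tested in BON-1 cells (27.3% and 18.2%, against 18.3% and 17.0%). ELOVL2 (-1.13 and -0.49) and ELOVL7 (-0.33 and -0.86), elongases of long fatty acids, were lower in both, and DEGS1, a ceramide desaturase, was higher (0.36 and 0.35). Of 13 tested genes that supply acetyl-CoA, coenzyme A or NADPH, 6 were lower and 3 higher in QGP-1 (46.2% and 23.1%) and 2 and 3 in BON-1 cells (15.4% and 23.1%). PGD, which makes NADPH in the pentose phosphate pathway, was lower in both (-0.37 and -0.31). PANK1, a pantothenate kinase, was higher in both (0.39 and 0.56), and malic enzyme ME1 moved in opposite directions (-0.22 and 0.43).

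Of the genes of acyl-CoA and glycerolipid synthesis, 4 of 15 tested were lower and 1 higher in QGP-1 cells (26.7% and 6.67%, against 17.7% and 17.3% of all genes), and 3 of 16 were lower and 7 higher in BON-1 cells (18.8% and 43.8%, against 18.3% and 17.0%). DGAT2, which makes triacylglycerol (-1.34 and -0.70), and the lipid droplet protein PLIN3 (-1.33 and -0.37) were lower in both, and AGPAT5 was higher (0.31 and 0.27). Of 16 genes of fatty acid oxidation, 9 were lower and 3 higher in QGP-1 (56.2% and 18.8%) and 4 and 6 in BON-1 cells (25% and 37.5%). ACADS, the short-chain dehydrogenase, was lower in both (-1.20 and -1.20), as was the nuclear receptor gene PPARD (-0.84 and -0.69). PPARA (0.46 and 0.37), a nuclear receptor gene too, was higher in both. Pairs of values in brackets after a gene are log2 fold changes, QGP-1 first, called by edgeR in both lines.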

How the data were processed

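RNA from cells cultured in triplicate was made by the authors into stranded mRNA libraries and aligned with STAR to GRCh38 (hg38); the STAR version, the counting program and its strand setting are not given in the sources used here. For each line the authors deposited raw counts per gene and TPM values, counts scaled by gene length and library. Every column was matched to its library by name.

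The counts were tested within each line with edgeR 4.0.16 in R 4.3.3 (default filter on low counts, TMM, quasi-likelihood test, Benjamini-Hochberg adjustment over all genes), 3 DOX against 3 vehicle libraries. SE was taken as the absolute log2 fold change over the square root of F. Interaction and vehicle comparisons used 1 fit of 12 libraries. The design followed the authors' comparison, with edgeR in place of their DESeq2. Alternatives were DESeq2 1.42.0, library size, no filter, at least 10 counts in every library, the replicate block, both lines in 1 fit, limma 3.58.1 on log2(TPM + 1) or log2(TPM + 0.1) with a mean TPM of at least 1, a minimum change of 0.5, leaving out each library, leaving out FADS1, FADS2 and GGPS1, and a length and GC correction. The code was tested on simulated counts. Coordinates, lengths, overlaps and pseudogenes come from GENCODE on GRCh38.

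The members, lists and tests were chosen with earlier results of these data known. Named with every library's value were members called in both lines in one direction, those called in the interaction, and SREBF1, SREBF2 and INSIG1; the other members have their fold changes. From each related list at most 4 genes called in both lines were named, by the smaller absolute change (some genes that this would name are not reported here), and MUC1 was named as the check of the hairpin. HMGCS1, SQLE and DHCR7 are named by the interaction. At these depths the lowest count of a member in a library was 91, so the spread between cultures sets the precision for most. No pair of replicates agreed within sampling noise (chi-square per gene 5.93 to 29.7), so each library was counted once.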

Additional observations from a re-analysis of the deposited data

Results flagged for a closer look

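The response to DOX differed between the lines for 8 of the 33 genes, by the line-by-DOX interaction term in edgeR. Of these, 5 had a lower log2 fold change in BON-1 than in QGP-1 cells, against 7.92% of 16598 genes. The other 3 had a higher one, against 8.80%, so that count was near the share of all genes. The BON-1 minus QGP-1 log2 fold change was -0.68 ± 0.11 (adjusted p = 7.59e-05) for HMGCS1, -0.61 ± 0.11 (adjusted p = 5.46e-04) for SQLE, -0.59 ± 0.13 (adjusted p = 0.00197) for DHCR7, -0.41 ± 0.11 (adjusted p = 0.015) for ACLY and -1.08 ± 0.13 (adjusted p = 3.37e-06) for FADS2. It was 0.42 ± 0.13 (adjusted p = 0.0303) for GGPS1, 0.44 ± 0.12 (adjusted p = 0.0125) for MSMO1 and 0.63 ± 0.17 (adjusted p = 0.0125) for ACSS2. HMGCS1, SQLE and DHCR7 were called in opposite directions in the lines, whereas ACSS2, MSMO1 and GGPS1 were lower in QGP-1 cells with overlapping groups in BON-1 cells.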

How the results depend on the processing

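Among the settings with a value for each member, no called change turned direction. The exception was log2(TPM + 1) tested with limma without centring on the median gene, where 10 of the 12 QGP-1 genes called lower became higher, 7 of them past the threshold, and SCAP in BON-1 cells fell below 0. That setting moved the median of all genes by 0.59 in QGP-1 and -0.31 in BON-1 cells: QGP-1 cells then had 1 member lower and 28 higher (sterol enzymes 1 and 15, fatty acid enzymes 0 and 7), and BON-1 cells 2 lower and 0 higher (1 sterol and 1 fatty acid enzyme lower). With centring, 12 were lower and 6 higher in QGP-1 (fatty acid enzymes 1 lower, FADS1 and FADS2 having lost their calls) and 17 and 1 in BON-1 cells. The sterol median in QGP-1 cells was -0.25 with a pseudocount of 0.1. A minimum log2 change of 0.5 left 5 lower and 0 higher in each line (QGP-1 sterol 4 and 0, fatty acid 1 and 0, and BON-1 sterol 3, fatty acid 2). Of all genes, that minimum left 1296 lower and 790 higher of 15089 in QGP-1 cells. In BON-1 cells it left 1419 lower and 1059 higher of 14625. Under the length and GC correction, added after seeing the data, the sterol median was -0.11 in QGP-1 and -0.20 in BON-1 cells, the BON-1 fatty acid median was -0.29, 0 fatty acid enzymes were higher in QGP-1, 2 members were higher in BON-1 and 8 members were lower in the interaction. Library size in place of TMM gave 9 lower in the interaction and 4 higher in BON-1 than in QGP-1 cells with vehicle, and no filter on low counts gave 8 lower in the interaction. Of all genes, the interaction called 1458 of 15122 lower under the length and GC correction. It called 1823 of 16598 lower with library size and 1597 of 23475 without the filter. Without FADS1, FADS2 and GGPS1 the QGP-1 sterol median was -0.20, the BON-1 fatty acid median -0.27, and 1 fatty acid enzyme was lower in QGP-1 and 3 in BON-1 cells.

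Leaving out 1 library at a time gave, in QGP-1 cells, 10 to 12 members lower and 3 to 6 higher, 2 to 5 sterol enzymes higher, 1 to 3 fatty acid enzymes lower and 0 to 1 higher, and a sterol median of -0.26 to -0.16. In BON-1 cells it gave 15 to 19 members lower and 0 to 2 higher, with 0 to 1 sterol enzymes higher. It gave 5 to 9 lower and 1 to 4 higher in the interaction, and 1 to 3 higher between the lines. Where a library was left out, its group of 2 was assumed to vary like the others. Same-numbered samples showed little correlation of their deviations (-0.07 to 0.12), which with 3 libraries per group cannot exclude a pairing. With the replicate block 14 members were lower and 6 higher in QGP-1 cells and 18 and 1 in BON-1 cells. DESeq2 gave 12 and 6, and 18 and 1. Except where a value above shows it, the cause of these shifts was not tested.

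Uncalled log2 values near 0 changed sign for 7 genes in QGP-1 cells, 4 in BON-1 cells, 9 in the interaction and 1 between the lines with vehicle. With library size, the values were 0.00363 for PMVK in QGP-1 cells, and -0.0236 for LSS in BON-1 cells, and -0.00477 for ACAT2, -0.00536 for IDI1 and -0.0406 for INSIG1 in the interaction, and 0.0969 for SCD in the vehicle comparison of the lines. With log2(TPM + 1), the values were -0.15 for MVK and 0.00318 for FASN in QGP-1 cells, and 0.0288 for PMVK in BON-1 cells. With log2(TPM + 0.1), the values were -0.0438 for MVK and -0.00143 for STARD4 in QGP-1 cells. With the length and GC correction, the values were 0.22 for PMVK, 0.0540 for TM7SF2 and 0.0556 for SREBF1 in QGP-1 cells, and 0.18 for PMVK and -0.00897 for MSMO1 in BON-1 cells, and -0.0868 for ACAT2, 0.0908 for MVD, -0.14 for IDI1, 0.0246 for SREBF2 and -0.0240 for INSIG1 in the interaction. With DESeq2, the value was 0.00449 for SCD in the vehicle comparison of the lines. With the minimum of 10 counts, the value was 0.0341 for SCD in the vehicle comparison of the lines. Over the fits that each left out a library, QGP-1 cells had -0.0333 to 0.0590 for MVK, -0.14 to 0.0647 for PMVK, -0.15 to 0.0329 for SREBF1, -0.0203 to 0.0746 for INSIG1, -0.0287 to 0.0962 for STARD4 and -0.23 to 0.0590 for FASN. Over the fits that each left out a library, BON-1 cells had -0.18 to 0.0533 for PMVK, -0.0382 to 0.0626 for LSS and -0.0960 to 0.0303 for CYP51A1. Over the fits that each left out a library, the interaction had -0.0287 to 0.14 for ACAT2, -0.18 to 0.0925 for PMVK, -0.21 to 0.0788 for MVD, -0.0183 to 0.12 for IDI1, -0.00866 to 0.17 for FDPS, -0.12 to 0.0574 for NSDHL, -0.15 to 0.0475 for EBP and -0.0119 to 0.0382 for INSIG1. Over the fits that each left out a library, the vehicle comparison of the lines had -0.10 to 0.0421 for SCD.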
